A study of Caenorhabditis elegans with 2 samples.

Results

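M03D4.4 of Caenorhabditis elegans is predicted to be a zinc finger protein of the C2H2 type, and its peaks at tRNA genes are described here. A peak was taken when its summit lay inside or within 500 bp of a nuclear gene that Ensembl annotates as a tRNA gene, which 226 of the 1423 nuclear peaks did (15.9%, 95% exact interval 14.0 to 17.9%). They lay at or beside 248 of the 612 nuclear tRNA genes. The peaks came from ChIP-seq, in which an anti-GFP antibody pulled down sonicated chromatin of mixed-stage embryos, collected 2 h after synchronization by egg bleaching. The animals, of both sexes and unknown age, were whole embryos of strain OP696, which carries the unc-119(tm4063) allele on chromosome III and the transgene wgIs696, from which M03D4.4 is made with a C-terminal GFP-FLAG tag. The study had 1 group of 2 biological replicates, so no conditions were compared. The line is a single transgenic line, and the data average over all cells of the embryo. Peaks of other tagged proteins were not analysed here, so sites of M03D4.4 and chromatin that any tagged protein recovers cannot be told apart.

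Transfer RNAs carry amino acids to the ribosome. Their genes are short and are transcribed by RNA polymerase III from a promoter that lies within the gene itself, in parts called the A box and the B box. Transcription factor TFIIIC binds both boxes and places TFIIIB just upstream of the gene, and TFIIIB recruits the polymerase, which stops at a run of T shortly after the gene. Many tRNA genes of C. elegans are identical copies scattered over the chromosomes, and many lie in introns of protein-coding genes. An isotype is the set of tRNAs for 1 amino acid, and the anticodon is the triplet that reads the codon.

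The sequences below show how strong peaks sat on their genes, and how copies of the same gene with and without a peak differed outside it. Each run is taken from the RefSeq genome on WBcel235 (ce11), and reads 5′ to 3′ along the tRNA strand from 100 bases upstream of the gene to 20 bases downstream of it. Base 101 of each run is therefore the first base of the gene. Capitals mark, in order, any GAGAGA or TCTCTC upstream, the word TNGNNNANNNG taken for the A box, the word GTTCNANNC taken for the B box, and the first TTTT downstream. The first pair are C04A11.t1 (chrX:13665455-13665693, plus strand, Leu), the strongest of all 226 peaks, and F57F5.t1 (chrV:12002076-12002280, plus strand, Ile), the strongest on its chromosome. Both have an intron of their own between the boxes.
C04A11.t1: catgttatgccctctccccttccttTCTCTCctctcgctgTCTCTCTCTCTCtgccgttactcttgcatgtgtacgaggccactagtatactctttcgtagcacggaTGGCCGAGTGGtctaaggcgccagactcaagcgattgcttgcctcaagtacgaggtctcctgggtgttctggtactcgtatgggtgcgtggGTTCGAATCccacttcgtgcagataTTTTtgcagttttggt
F57F5.t1: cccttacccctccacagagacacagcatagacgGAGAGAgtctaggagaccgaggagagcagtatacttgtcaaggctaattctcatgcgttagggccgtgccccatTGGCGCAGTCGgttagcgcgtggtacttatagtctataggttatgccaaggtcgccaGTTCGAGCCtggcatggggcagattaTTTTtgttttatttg
The summit fell on base 114 of the run of C04A11.t1 and on base 106 of that of F57F5.t1, inside the A box word of the first and just before that of the second.

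The other runs are pairs of genes with the same sequence over the whole gene, the copy with a peak first and then a copy with no peak in the pooled list even before thresholding. The copies without a peak, and these families among others, were chosen after their values were seen. They are T07H6.t2 (chrX:6292258-6292449, minus strand) and B0491.t2 (chrII:11333993-11334184, minus strand) for Ala, C06G1.t1 (chrX:16634810-16635001, minus strand) and F28H6.t3 (chrX:14135774-14135965, plus strand) for His, and C33G3.t2 (chrX:14063926-14064118, minus strand) and F18C5.t1 (chrII:6565148-6565340, plus strand) for Lys.
T07H6.t2: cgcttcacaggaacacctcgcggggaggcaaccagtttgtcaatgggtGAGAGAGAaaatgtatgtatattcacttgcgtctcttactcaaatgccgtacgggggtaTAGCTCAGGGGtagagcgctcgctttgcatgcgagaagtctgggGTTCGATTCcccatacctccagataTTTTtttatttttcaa
B0491.t2: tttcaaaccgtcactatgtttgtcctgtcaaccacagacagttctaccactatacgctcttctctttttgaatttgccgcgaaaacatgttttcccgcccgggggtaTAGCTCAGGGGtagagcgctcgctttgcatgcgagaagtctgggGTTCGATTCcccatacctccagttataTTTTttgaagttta
C06G1.t1: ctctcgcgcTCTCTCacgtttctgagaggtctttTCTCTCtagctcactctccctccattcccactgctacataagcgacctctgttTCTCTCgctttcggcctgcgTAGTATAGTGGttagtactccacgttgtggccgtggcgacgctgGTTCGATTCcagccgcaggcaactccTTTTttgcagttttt
F28H6.t3: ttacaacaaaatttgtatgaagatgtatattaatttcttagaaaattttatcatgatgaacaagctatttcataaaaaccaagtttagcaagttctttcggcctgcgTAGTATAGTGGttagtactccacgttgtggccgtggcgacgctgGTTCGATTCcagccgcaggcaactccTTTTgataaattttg
C33G3.t2: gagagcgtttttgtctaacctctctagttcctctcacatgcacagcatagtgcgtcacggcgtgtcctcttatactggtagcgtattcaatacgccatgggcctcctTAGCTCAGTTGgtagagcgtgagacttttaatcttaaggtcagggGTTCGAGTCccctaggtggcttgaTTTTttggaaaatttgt
F18C5.t1: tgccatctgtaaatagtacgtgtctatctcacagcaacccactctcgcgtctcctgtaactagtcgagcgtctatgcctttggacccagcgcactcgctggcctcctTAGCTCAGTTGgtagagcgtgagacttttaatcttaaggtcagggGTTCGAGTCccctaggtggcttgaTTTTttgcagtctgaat
The summits fell on base 82 at T07H6.t2, on base 89 at C06G1.t1 and on base 113 at C33G3.t2. Within a pair both copies hold the same A box and B box words, so the genes themselves do not differ. Upstream, GAGAGA or TCTCTC stands in the bound Ala and His copies and in neither of their unbound partners, while the Lys pair has it in neither copy. The 50 bases before the gene are 62% A and T in T07H6.t2 and 56% in B0491.t2, 48% in C06G1.t1 and 68% in F28H6.t3, and 48% in C33G3.t2 and 42% in F18C5.t1. A further pair for Tyr is not printed, C02B4.t2 with a peak and R11.t4 with no pooled peak. Neither copy has GAGAGA or TCTCTC upstream, and the A and T content is 48% in C02B4.t2 and 62% in R11.t4.

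Peaks stood at tRNA genes more often than at snoRNA genes, protein-coding genes or nuclear genes as a whole. A summit lay inside or within 500 bp of 40.5% of them (248 of 612, 36.6 to 44.5%), against 4.92% of all 46890 nuclear genes measured the same way, 4.45% of those other than tRNA genes and 6.48% when piRNA genes were left out too. The share was 21.7% of the 346 snoRNA genes (75 genes) and 6.27% of the 19973 protein-coding genes. A longer list of pooled peaks, called at a relaxed threshold, put a summit at 437 tRNA genes (71.4%), against 34.7% of all nuclear genes. By that list the share was 48.5% when tRNA and piRNA genes were left out, 51.4% of protein-coding genes and 61.8% of snoRNA genes. Of the 364 tRNA genes without a peak in the thresholded list, 189 had such a relaxed peak, with a median signal of 78.7 and none above 146, and 175 had none in the pool. A total of 124 tRNA genes had none in the relaxed lists of the pool or of either replicate.

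The signal of a peak is the authors' own value, and the sources used here do not give its scaling. The tRNA peaks had a median signal of 313, with quartiles of 225 and 488, against a median of 195 and quartiles of 164 and 264 for the 1197 other nuclear peaks. The ratio of the medians was 1.60 in the pool, 1.55 from replicate 1 alone and 1.55 from replicate 2 alone. The tRNA peaks thus lay towards the strong end of the list but did not fill its top, since the 75 peaks beside snoRNA genes without a tRNA gene had a median of 489 and a highest value of 2198. By rank, 33 of the first 100 nuclear peaks were tRNA peaks (33%, 23.9 to 43.1%), and 42 of the next 100 (42%, 32.2 to 52.3%). The share was 29% at ranks 201 to 400, 16.7% at ranks 401 to 700, 6.67% at ranks 701 to 1000 and 5.44% at ranks 1001 to 1423. Their widths had the same median as the other peaks, 430 bp, but a lower first quartile, 251 bp against 430 bp.

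**Figure D1:**
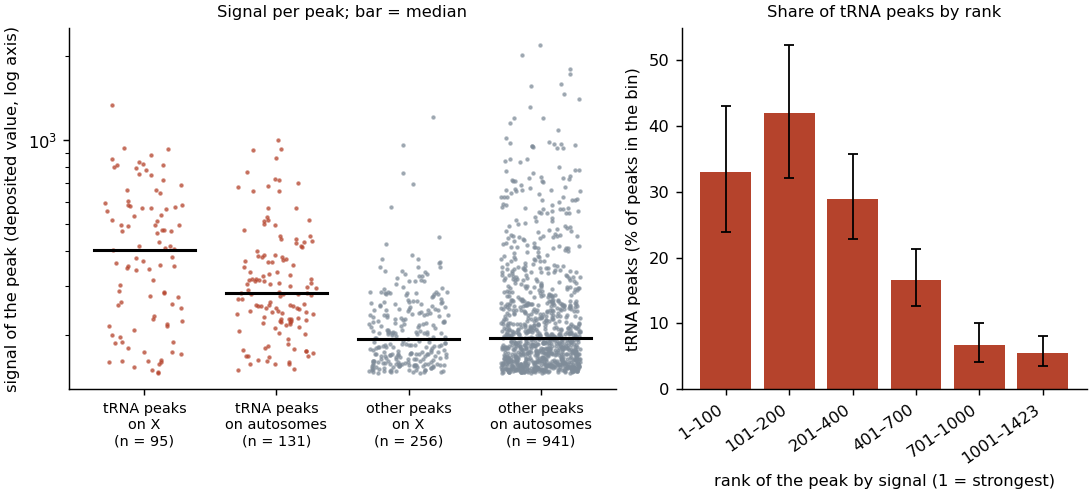
Left, deposited signal of each nuclear peak on a log axis (points) with the median of each set (bar), for tRNA peaks on X and on autosomes and for other peaks on X and on autosomes. Right, tRNA peaks as a percentage of the peaks in each range of ranks, with 95% exact intervals. tRNA peaks on X have the highest of the 4 medians (402), and the share of tRNA peaks falls to 5.44% in the last range of ranks.

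The strongest peak, C04A11.t1 (WBGene00000308, chromosome X, 13665555 to 13665673, plus strand), reached 1339 in the pool, with 688 in replicate 1 and 645 in replicate 2. It ranked 11 and 9 among the nuclear peaks of replicates 1 and 2. The gene encodes a leucine tRNA with the anticodon CAA and lies outside protein-coding genes. Next came C37A2.t1 (chromosome I, 6781803 to 6781874, plus strand), a cysteine tRNA gene in an intron of cye-1, the cyclin E gene, with 1004 in the pool, 589 in replicate 1 and 419 in replicate 2. The glutamate tRNA gene C28G1.t1 (chromosome X, 8836113 to 8836184, plus strand), which overlaps an exon of C28G1.2, had 939 in the pool, 524 in replicate 1 and 409 in replicate 2. These 3 stood higher in replicate 1 than in replicate 2, as most tRNA peaks did.

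F57F5.t1, an isoleucine tRNA gene with the anticodon TAT, reached 930 in the pool (503 and 427 in replicates 1 and 2). F17H10.t1, a glycine tRNA gene in an intron of the sorting nexin gene snx-17, had 926 (443 and 482). F29C4.t1, an arginine tRNA gene on the opposite strand in an intron of the collagen gene col-99, had 924 (494 and 424). The strongest lysine tRNA peak was at W03G11.t1 with 883, the strongest tryptophan peak at B0523.t1 in an intron of the flightless homolog fli-1 with 860, and the strongest alanine peak at F15G9.t1 in an intron of the hemicentin gene him-4 with 852. The other 16 of the 25 strongest had signals of 837 at C42D8.t1 (Ile) to 685 at F35H8.t1 (Arg). All 25 came within the first 73 pooled ranks, and the lowest rank of any in either replicate was 92. Of the 25, 16 lay on X, 13 in introns of protein-coding genes, and 22 had their summit within 25 bp of the 5′ end. Of all 226 tRNA peaks, 95 lay on X (42.0%), and 65 and 47 in introns on the host's strand and on the opposite strand. The intron share of the 25 was thus close to that of all tRNA peaks. Of the 226 summits, 130 lay in the first 30 bases of the gene or the 30 bp upstream. The weakest tRNA peaks were at K01A12.t4 (Cys, 151), C16D9.t3 (Met, 150), a second peak at C42D8.t1 (147) and a second peak at C02D4.t1 (147).

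Summits sat on the 5′ part of the tRNA gene. They lay at a median of 17 bp after the first base, with quartiles of 1 and 43 bp. Of the 226 summits, 147 were inside the gene (65.0%), 53 upstream (23.5%) and 26 downstream (11.5%). Only 15 lay more than 50 bp outside the gene. The summits of the matching replicate peaks had medians of 15 bp in replicate 1 and 14 bp in replicate 2. The A box word began at a median of base 8 of the gene and the B box word at base 52 in genes without an intron of their own, so the median summit fell at the A box and upstream of the B box. The stronger 113 peaks had a median of 13 bp and the weaker 113 a median of 27 bp. In the 13 peaks at genes with an intron of their own, where the B box word began at a median of base 64, the median was 10 bp, against 19 bp in the 213 others. Counting only summits inside genes moves the overall median to 26 bp. The peaks had a median width of 430 bp, and 469 of the 612 tRNA genes have an identical copy. Reads within such copies map to several places. Whether this moved summits, and whether the summits tell the A box from the B box, was not tested.

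**Figure D2:**
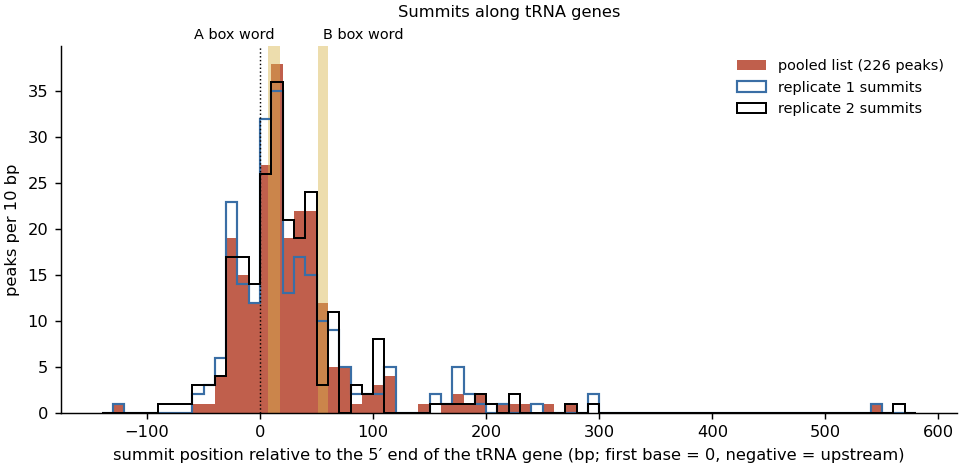
Number of tRNA peaks per 10 bp by distance of the summit from the 5′ end of the nearest tRNA gene (bp, transcribed direction to the right), for the pooled peaks (filled) and the matching peaks of replicates 1 and 2 (outlines), with the median places of the A box and B box words in genes without an intron shaded. The pooled summits have a median of 17 bp, close to the A box word.

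The box words were counted next. The B box word GTTCNANNC was found on either strand in the 101 bp around 121 of the 226 tRNA summits (53.5%), against 4.34% of the other peaks and 3.53% of all 101-bp windows of the nuclear genome. The looser A box word TNGNNNANNNG was found around 91.6% of tRNA summits, against 52.9% of other peaks and 46.8% of genome windows. The words belong to tRNA genes, so their excess over the other peaks follows from how the peaks were chosen. Among tRNA genes, 238 of the 587 with an exact B box word had a peak (40.5%) and 10 of the 25 without one (40%, 21.1 to 61.3%). An A box word was present in all 248 genes with a peak, and 0 of the 16 genes without the word had one, which allows a share of up to 20.6% by the exact interval. The first TTTT began at a median of base 5 after the gene, both in genes with a peak and in genes without.

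At 10 tRNA genes a second, weaker peak stood beside the first, at a spacing of 199 to 206 bp between the summits. At C37A2.t1 the signals were 1004 and 264, at F29C4.t1 924 and 207, and at F33G12.t1, an isoleucine tRNA gene, 702 and 326. The others were C42D8.t1, R04D3.t2, F41D9.t3, M57.t1, C14B9.t2, C02B4.t1 and C02D4.t1, with second peaks of 147 to 223. The second summit lay downstream of the first in 9 of the 10 and upstream at C42D8.t1. These genes were singled out after their values were seen. The near-constant spacing was not tested against a minimum distance between peaks in the authors' calling, which is not given. Without the second peaks the tRNA peaks numbered 216, with a median signal of 317.

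Both replicates held nearly all of the tRNA peaks. Of the 226, 224 were matched by a peak of the relaxed list of replicate 1 and all 226 by one of replicate 2, with an overlap of at least 50% of either peak. The exceptions were K04C2.t3 (Lys, signal 366 in the pool and 156 in replicate 2) and C03F11.t1 (Met, 219 and 127). Both lists also fed the thresholding, so the match is not independent. Taking only the strongest 1423 nuclear peaks of each replicate, 195 tRNA peaks were found in both (86.3%, 81.1 to 90.5%), against 771 of the 1197 other peaks (64.4%). This cut is by signal, and the tRNA peaks had the higher median signal in the pool (313 against 195). The 2 shares were not compared at like signal, so they do not show that tRNA peaks replicate better. Across the 224 tRNA peaks in both lists, log2 signal correlated between the replicates, with r = 0.87 by Pearson and rho = 0.87 by Spearman. This is a description across peaks that share their libraries. The log2 ratio of replicate 2 to replicate 1 had a median of -0.17 (SD 0.38 over peaks), against -0.19 for the other peaks. It was below 0 at 165 of the 224, and 219 lay within 1 log2 unit of no difference. Of the 5 outside that range, the second peaks at C42D8.t1, M57.t1 and F41D9.t3 and the peak at F15G9.t2 had been matched in 1 replicate to the stronger neighbour.

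**Figure D3:**
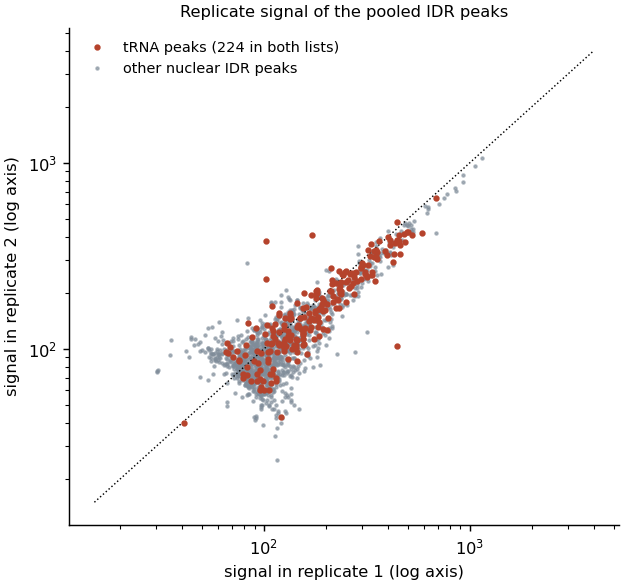
Signal in replicate 1 against signal in replicate 2, both on log axes, for the 224 tRNA peaks found in both lists and for the other nuclear peaks; the dotted line marks equal signal. Of the 224, 165 lie below the line, and the median log2 ratio of replicate 2 to replicate 1 over all 224 is -0.17.

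Intronic tRNA genes had a peak about as often as the others. Of the 283 tRNA genes inside introns of protein-coding genes 116 had a peak (41.0%), against 127 of the 319 outside such genes (39.8%), a difference of 1.18 percentage points (95% interval -6.63 to 8.99). The strand of the host made little difference to the share, with 68 of 161 genes on the host's strand (42.2%) and 48 of 122 on the opposite strand (39.3%). The peaks on the host's strand had a median signal of 284 and those on the opposite strand 352. Introns on the opposite strand held strong peaks at C06G1.t1 (His, 817), at F41D9.t3 (Asn, 816) in the sulfate permease family gene sulp-3, at C02B4.t2 (Tyr, 780) in the nuclear hormone receptor gene nhr-17, at E03E2.t1 (Ser, 749) in the vesicular monoamine transporter gene cat-1, and at F38G1.t2 (Asp, 720) in the fibroblast growth factor gene egl-17. In all, 58 of the 226 tRNA summits (25.7%) fell in the window around a protein-coding gene's 5′ end that reaches 1000 bp upstream and 500 bp downstream, against 54.8% of the other summits. Of the 612 tRNA genes, 140 have their own 5′ end in that window. A peak was found at 62 of these 140 (44.3%), against 186 of the 472 other tRNA genes (39.4%). Of the 29 tRNA genes with an intron of their own 11 had a peak (37.9%), against 237 of the 583 without (40.7%).

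The share of clustered tRNA genes with a peak was below that of solitary ones under most settings, by an amount that varied with the setting. Among the 236 tRNA genes with another within 1000 bp 85 had a peak (36.0%), against 163 of the 376 without such a neighbour (43.4%), a difference of -7.33 percentage points (-15.1 to 0.66). With clusters drawn at 500 bp the shares were closer, 38.2% (65 of 170) and 41.4% (183 of 442), and at 5000 bp they were 34.8% and 47.0%. One summit can count for several genes of a cluster. From the strongest peaks of replicate 2 alone the difference was -11.9 percentage points (-19.5 to -4.02) and from those of replicate 1 alone -11.3 (-19.0 to -3.33). When only summits inside the gene counted it was -19.1, within 250 bp it was -13.7 (-21.1 to -5.84), and with summits up to 1000 bp away it turned to 2.15 (-5.88 to 10.2). Only 28 peaks had more than 1 tRNA gene within 500 bp, 24 of them 2 genes, 3 of them 3 genes and 1 of them 5. The last was the weak peak at K01A12.t4 (151), inside a cluster of 3 cysteine and 2 arginine tRNA genes on X. The strongest of these peaks were at F15G9.t1 (852, beside F15G9.t2), M02F4.t1 (646, beside M02F4.t2), F22F1.t6 (585, with 2 neighbours) and C16B8.t2 (584, beside C16B8.t3). F15G9.t2, an alanine tRNA gene with another anticodon, was the gene nearest to a separate summit with a signal of 362. That summit lay at base 9743803 and that of F15G9.t1 at base 9743601. Whether it belongs with the second peaks described above was not tested.

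On the X chromosome a like share of tRNA genes had a peak, and the median signal of the peaks was higher. On X 112 of the 276 tRNA genes had a peak (40.6%), against 136 of the 336 on autosomes (40.5%), a difference of 0.10 percentage points (-7.64 to 7.90). The autosomal shares were 39.4% on chromosome I (26 of 66), 43.9% on II (25 of 57), 48.4% on III (31 of 64), 40.8% on IV (29 of 71) and 32.1% on V (25 of 78). The X holds 45.1% of all nuclear tRNA genes, and 95 of the 226 tRNA peaks lay there (42.0%), against 21.4% of the other peaks. The tRNA peaks on X had a median signal of 402, against 282 on autosomes, where the medians of single chromosomes were 252 to 302. The first quartiles were alike, 227 on X and 226 on autosomes, and the third quartiles were 579 and 385. The difference in medians was seen in each replicate, with medians of 212 on X and 151 on autosomes in replicate 1 and of 196 on X and 134 on autosomes in replicate 2. The first quartiles were 127 on X and 113 on autosomes in replicate 1, and 106 and 107 in replicate 2. The other peaks showed none of it, with medians of 194 on X and 195 on autosomes. Among 24 families of identical tRNA genes with peaks on both kinds of chromosome, the median signal was higher on X in 20 and lower in 4. Many of these medians rest on 1 or 2 bound copies, such as 1 on X for His-GTG and 2 on X for Lys-CTT. A gene was given the strongest summit within 500 bp, which can be that of a neighbour. In Ala-AGC, F15G9.t2 thus counted with the 852 of F15G9.t1 and not with the 362 of the summit nearest to it. The families with the most bound copies on X were Cys-GCA, where X was lower (180 against 305), and Pro-TGG, where it was higher (345 against 161).

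Peaks were found at every standard isotype, and cysteine tRNA genes had the highest share. Of the 15 genes read as cysteine 12 had a peak (80%, 51.9 to 95.7%). The other isotypes with 5 or more genes had shares of 26.3% for tyrosine (5 of 19) to 52.6% for methionine (10 of 19). Each of their intervals spans the 40.5% of all tRNA genes, and the cysteine interval does not. Isotype was read from the anticodon in the gene sequence and matched the RefSeq product for 592 of the 612 genes. By the RefSeq product cysteine had 12 of 13 (92.3%). That separation was lost with replicate 2 alone, where the cysteine share was 60% (32.3 to 83.7%), and kept with replicate 1 alone, where it was 80%. Within 250 bp the share was 66.7% (38.4 to 88.2%), against 38.1% of all tRNA genes. The separation was also lost within 100 bp (60%) and with the strongest 711 peaks (53.3%, 26.6 to 78.7%). With summits counted only inside the gene the cysteine share was 40%, and with identical genes counted once it was 25%, since the 12 genes with a peak are copies of 1 sequence. Beyond the isotypes already named, the strongest peaks were at R04D3.t2 for valine (822), R01H5.t1 for threonine (690), T15B12.t1 for methionine (677), C16B8.t2 for proline (584), R04A9.t1 for glutamine (538) and Y39B6A.t9 for phenylalanine (495). Of the 13 genes whose anticodon could not be read, T14B4.t1 (217) was nearest to a peak and F42A10.t2 lay beside the peak of F42A10.t1 (572). The single selenocysteine gene of RefSeq had no peak. The shares count genes, which share summits and sequence, so their intervals are too narrow.

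**Figure D4:**
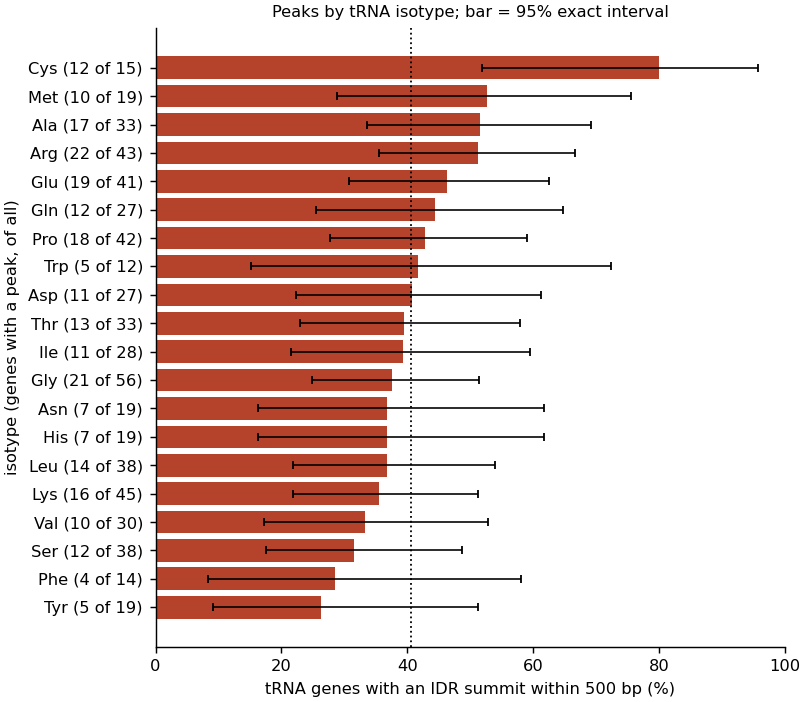
Percentage of tRNA genes of each isotype with a summit inside or within 500 bp (bars), with 95% exact intervals (lines) and the share of all 612 tRNA genes (dotted line, 40.5%). The cysteine bar (12 of 15) stands above the others, and the remaining intervals all cross the dotted line.

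Copies of the same tRNA gene had a peak of the thresholded list, here called bound, at some places and not at others. A copy without one can hold a weaker peak, so the cut by signal does not show absence of binding. The 612 genes have 200 distinct sequences, and 32 families have 5 or more identical copies, 402 genes in all. In 30 of the 32 families some copies had a peak and some did not. In the largest, Gly-TCC, 13 of 29 copies had a peak, with signals of 167 to 646. Lys-CTT had 11 of 25 with signals of 153 to 883, Pro-TGG 10 of 24 with 161 to 577, and Asp-GTC 8 of 21 with 180 to 720. Counting relaxed pooled peaks, the copies with a peak numbered 24 in Gly-TCC, 19 in Lys-CTT, 15 in Pro-TGG and 14 in Asp-GTC. In Cys-GCA all 12 copies had one, at 10 summits, with signals of 151 to 1004. In 1 family of Leu-AAG genes 0 of 7 copies had a peak of the thresholded list, while all 7 had a relaxed pooled peak, up to a signal of 144. Single-copy genes had a peak in 42 of 143 cases (29.4%, 22.1 to 37.6%) and genes with 10 or more identical copies in 140 of 317 (44.2%, 38.6 to 49.8%). Between them, genes with 2 to 4 copies had one in 32 of 67 cases (47.8%, 35.4 to 60.3%). Those with 5 to 9 copies had one in 34 of 85 (40%, 29.5 to 51.2%), so the share did not rise steadily with copy number. Reads within identical copies map to several places, and how the authors placed them is not given, so a part of the signal may be shared between copies.

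Outside the gene, the copies with and without a peak differed upstream. The 50 bases before the gene held a median of 54% A and T in the 248 genes with a peak, 58% in the 189 with a relaxed peak only, and 62% in the 175 without a pooled peak. For comparison, the nuclear genome holds 64.6% A and T, and the 100 bp around the summits of the other peaks a median of 50%. Of the tRNA genes with under 50% A and T upstream 66 of 118 had a peak (55.9%, 46.5 to 65.1%), and of those with 50 to under 60% 120 of 225 (53.3%, 46.6 to 59.99%). The share was 54 of 198 (27.3%, 21.2 to 34.0%) at 60 to under 70% and 8 of 71 (11.3%, 4.99 to 21.0%) at 70% or more. Among the 30 families with both kinds of copy, the bound copies had the lower median A and T content in 26, the higher in 2 and an equal one in 2. In Val-AAC it was 38% in bound copies and 60% in the others, in His-GTG 46% and 64%, and in Ala-TGC 60% and 55%. The 2 uniform families went the other way, with a median of 59% in the Cys-GCA copies, all bound, and 44% in the 7 Leu-AAG copies, none bound. Whether base composition affects how well these sequences are recovered and sequenced was not tested.

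By distance, the difference was largest within 100 bases upstream. From 100 to 76 bases upstream the mean A and T content was 56.6% in genes with a peak and 65.4% in genes without a pooled peak. From 200 to 176 bases upstream the means were 64.9% and 64.1%. Inside the gene they were 41.6% and 42.2%, and in the first 25 bases downstream 75.9% and 76.0%. Further downstream, from 51 to 75 bases, they were 63.8% and 67.2%.

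The word GAGAGA, on either strand, was more frequent upstream of the genes with a peak. It stood within 100 bases upstream of 76 of the 248 genes with a peak (30.6%, 24.97 to 36.8%), of 13 of the 189 with a relaxed peak only (6.88%, 3.71 to 11.5%) and of 20 of the 175 without a pooled peak (11.4%, 7.12 to 17.1%). By comparison, 5.13% of all 100-bp windows of the nuclear genome and 22.7% of the 100-bp windows around the other summits held it. The word was picked after words had been compared between the genes with and without a peak, so its difference is a description. The word and the A and T content were counted over overlapping bases. The word was not compared at like A and T content. In families of 5 or more identical copies it stood upstream of 58 of the 174 copies with a peak (33.3%) and of 18 of the 228 without (7.89%). The share was higher in the genes with a peak on each of the 6 chromosomes, from 17.2% against 14.3% on IV to 40% against 9.43% on V, with 4 of 26 against 0 of 40 on I. Among genes with the word 76 of 109 had a peak (69.7%), against 172 of 503 without it (34.2%). Peaks whose nearest tRNA gene had the word numbered 75 and had a median signal of 369, against 300 for the rest. On X 35.7% of the genes with a peak had the word, against 26.5% on autosomes, while their median A and T content over the 50 bases upstream was 56% on X and 52% on autosomes. With a window of 50 bases the difference between genes with and without a peak in the thresholded list was 9.99 percentage points, against 21.6 with 100 bases.

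**Figure D5:**
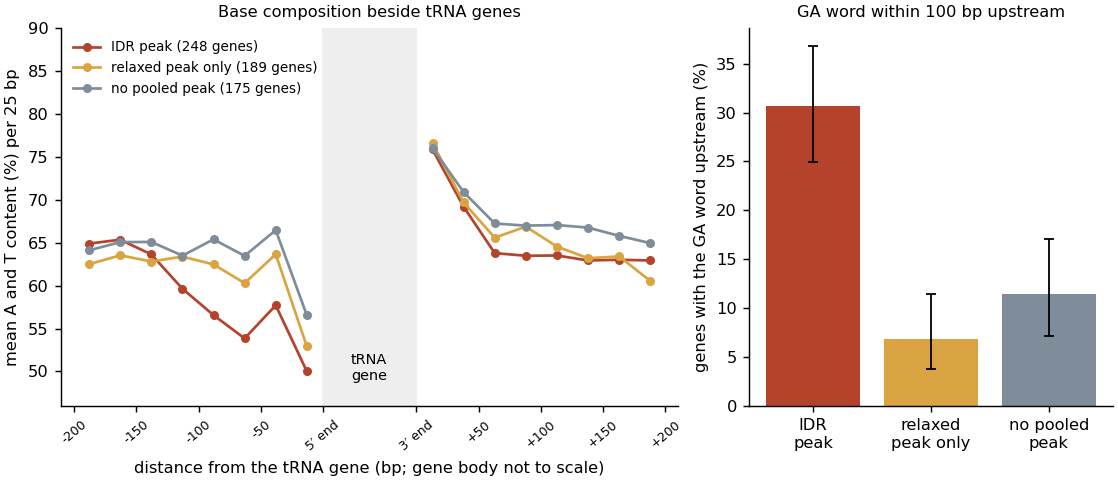
Left, mean A and T content per 25 bp upstream and downstream of tRNA genes, for genes with a peak in the thresholded list, with a relaxed pooled peak only, and with no pooled peak. Right, percentage of genes of each kind with GAGAGA on either strand within 100 bases upstream, with 95% exact intervals. The lines of genes with and without a pooled peak lie furthest apart within 100 bases upstream and less far apart downstream (63.8% against 67.2% at 51 to 75 bases), and the bar of genes with a peak (30.6%) is the tallest.

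The distance of 500 bp mattered little to which peaks were taken. A limit of 50 bp would have kept 211 of the 226 peaks and a limit of 100 bp 214. Just inside the limit stood T22F3.t3 (Pro) at 474 bp with a signal of 352, and after it the second peaks of C02B4.t1 at 192 bp (188), C02D4.t1 at 183 bp (147) and F41D9.t3 at 163 bp (161). Just outside stood K06G5.t1 at 682 bp (203), C16H3.t1 at 701 bp (203), ZK970.t3 at 778 bp (157) and ZK994.t2 at 931 bp (1198). Only 1 of the 226 peaks also had another small RNA gene within 500 bp, the spliced leader gene sls-2.9 beside M01E5.t1 (414).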

How the data were processed

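Peak lists of 2 biological replicates in 1 group, as numbered in the labels, were used on the ce11 build. The authors called a relaxed list of 30000 peaks and background per replicate and for the pool, and derived the thresholded list from the irreproducible discovery rate (IDR), per the file headers. The deposited signal of each peak is the authors' value, and another deposited column gives the summit as a distance from the peak start. The sources used here do not give the aligner, caller, control, IDR threshold or signal scaling. The files hold no read counts, so the depth is unknown, and intervals cover counting error only.

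The members, lists and words were chosen with earlier results of these data known. Genes came from Ensembl release 115 on WBcel235, and sequence and tRNA products from RefSeq on the same assembly. No peak passed a chromosome end. The nuclear IDR list was exactly the 1423 strongest nuclear peaks of the pooled list. A peak was assigned to the tRNA gene nearest its summit, and replicate peaks were matched by an overlap of 50% of either peak, taking the nearest summit. The anticodon was read from the stem of 5 pairs (4 or more required) with a loop of 7 bases. Shares have exact 95% intervals after Clopper and Pearson, and differences of shares have Newcombe intervals. No tests were run, since peaks and genes are not replicates.

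The peaks named were the 25 strongest, the strongest of each context, isotype and chromosome, the 4 weakest, and those next to the 500 bp limit. Others were chosen after their values were seen. Alternatives were other distances, other lists, single replicates, other cluster limits and identical genes counted once. Isotype from RefSeq, leaving out second peaks, and all alternatives of the upstream composition and word were added after seeing the data. Steps were tested on simulated data. Calculations ran in Python 3.11.15 with SciPy 1.17.1 and pandas 2.3.3, on NumPy 2.4.6, and plots in Matplotlib 3.10.9. The ce10 lists were not used here.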

Additional observations from a re-analysis of the deposited data

Results flagged for a closer look

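The mitochondrial genome also carried peaks of the thresholded list, which the report leaves out. Of 20 such peaks 16 had a summit within 500 bp of 1 of the 22 mitochondrial tRNA genes (80%), against 68.2% of all mitochondrial positions. The signals of these 16 were 292 to 4334 with a median of 1601, against a highest value of 1339 at a nuclear tRNA gene. The strongest of the 20 mitochondrial peaks (5714) was not among the 16. They are listed because they are a signal outside the peaks compared, in a genome where most positions are near a tRNA gene.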

How the results depend on the processing

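No paired analysis was possible because the 2 replicates form 1 group. The count of 226 tRNA peaks stayed within 1.5 times under every distance and list tried except summits inside the gene (147). The share of tRNA genes with a peak (40.5%) was 24.0% for summits inside the gene, 35.8% within 100 bp, 32.8% with the strongest 711 peaks and 45% with identical genes counted once. The median signal (313) was 364 with the strongest 711 peaks and 149 to 168 with single replicates, whose signals have their own scale. The ratio of its median to that of other peaks (1.60) was 1.30 with the strongest 711 peaks and 1.55 to 1.55 with single replicates. The median summit position (17 bp) was 26 bp for summits inside the gene, 19 bp without peaks near more than 1 tRNA gene and 14 to 14 bp with single replicates. The clustering difference (-7.33 percentage points) was -19.1 for summits inside the gene, -18.9 within 100 bp, 2.15 within 1000 bp, -13.7 within 250 bp, -14.1 with the strongest 711 peaks and -11.9 to -11.3 with single replicates. The cysteine share (80%) was 40% for summits inside the gene, 25% with identical genes counted once and 60 to 80% with single replicates. The ratio of the median signal of tRNA peaks on X to that on autosomes (1.42) was above 1 throughout, at 1.34 within 1000 bp, 1.52 with the strongest 711 peaks and 1.38 to 1.38 with single replicates. With 1 mismatch allowed in the B box word only 1 gene lacked it, and the difference became 40.6. The share matched in both replicates (99.1%) was 96.5% for summits within 100 bp and 86.3% with the strongest peaks of each. The differences in share by host context and by X, and the replicate log2 difference, stayed within their interval or spread under all alternatives run. The pooled list of the same length gave identical values because it holds the same peaks. The causes were not tested. Unknown depth sets no lower limit on what could be missed.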

Other observations

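Annotated tRNA pseudogenes rarely carried peaks. Of the 209 tRNA pseudogenes in RefSeq 4 had a summit of the thresholded list inside or within 500 bp (1.91%, 95% exact interval 0.52 to 4.83%). The share was 40.5% of the tRNA genes and 4.92% of all nuclear genes. The 4 were D1046.t1 on chromosome IV (signal 956), T08B2.t1 on chromosome I (666), C52E12.t1 on chromosome II (617) and Y94H6A.t1 on chromosome IV (173), and none had a tRNA gene within 500 bp. Their summits lay inside the pseudogene at the first 3 and 1 bp outside it at the last. In the relaxed pooled list 101 of the 209 had a summit (48.3%), against 71.4% of tRNA genes and 34.7% of all nuclear genes. That was close to the 48.5% of nuclear genes other than tRNA and piRNA genes and the 51.4% of protein-coding genes. Of the 189 tRNA genes with a relaxed pooled peak only, the strongest were F02E11.t1 (146) and Y54G2A.t5 (145), close to the weakest tRNA peak of the thresholded list (147).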
